A study of Mus musculus with 6 samples.

Results

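The resting state of mouse bone marrow-derived macrophages (BMDM) is described here from the 3 control arrays of a study of 6, the other 3 arrays being of cells exposed to ADP, which enter only a 6-array fit of the slide difference and are not described. The members were the samples whose titles name the control group, replicates 1 to 3. Bone marrow cells of C57BL/6 mice had been grown for 7 d in RPMI 1640 medium with 10% FBS and 20% L929-conditioned medium, which supplies the growth factor M-CSF, and were harvested after 6 h of control treatment. The labels do not say what that treatment consisted of, nor the sex or age of the mice. Per the series' design text the experiments were independent and each used another donor, so the spread over arrays holds differences between animals and cultures as well as technical error.

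Macrophages are tissue phagocytes that engulf microbes, dying cells and debris and digest them in lysosomes. Those grown in M-CSF depend on its receptor, the product of Csf1r, and on the transcription factor PU.1, encoded by Spi1. At rest they carry many receptors for microbial and tissue signals, while the genes of inflammatory cytokines are transcribed mainly after stimulation.

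Each array gave 1 reading per probe, averaged over repeated spots. The level of a gene is the log2 processed signal of its brightest probe minus the log2 of the 75th percentile of all probes on the same array, so that a level of 0 lies at that percentile. The scanner software flagged 50.9%, 51.9% and 50.7% of 59305 spots, control spots left out, as well above background on controls 1, 2 and 3, and none as saturated. The 75th percentile was 382, 387 and 456 on controls 1, 2 and 3. Below, detected means that the brightest probe was flagged well above background on all 3 arrays, and silent means that no probe of the gene was so flagged on any of them. A silent gene has a reading that is only a bound. The brightness of a probe also depends on its sequence, so a level gives the place of a signal in the array's distribution and does not rank transcript amounts between genes. The number of arrays, 3, limits the precision of every value.

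Of 36095 genes and other transcribed features, 19115 were detected, or 53.0%, and of the 20046 protein-coding genes 12455 were detected, or 62.1%. Both shares serve as the background for the counts that follow. Detected genes had mean levels from -4.36 to 9.42, with a median of 0.95 and a middle range from -1.68 to 3.43. The 13907 silent genes had a median reading of -6.54, and 95% of them lay below -5.16. Detected and silent genes therefore met at the dim end of the scale, with readings of silent genes reaching -4.46.

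**Figure D1:**
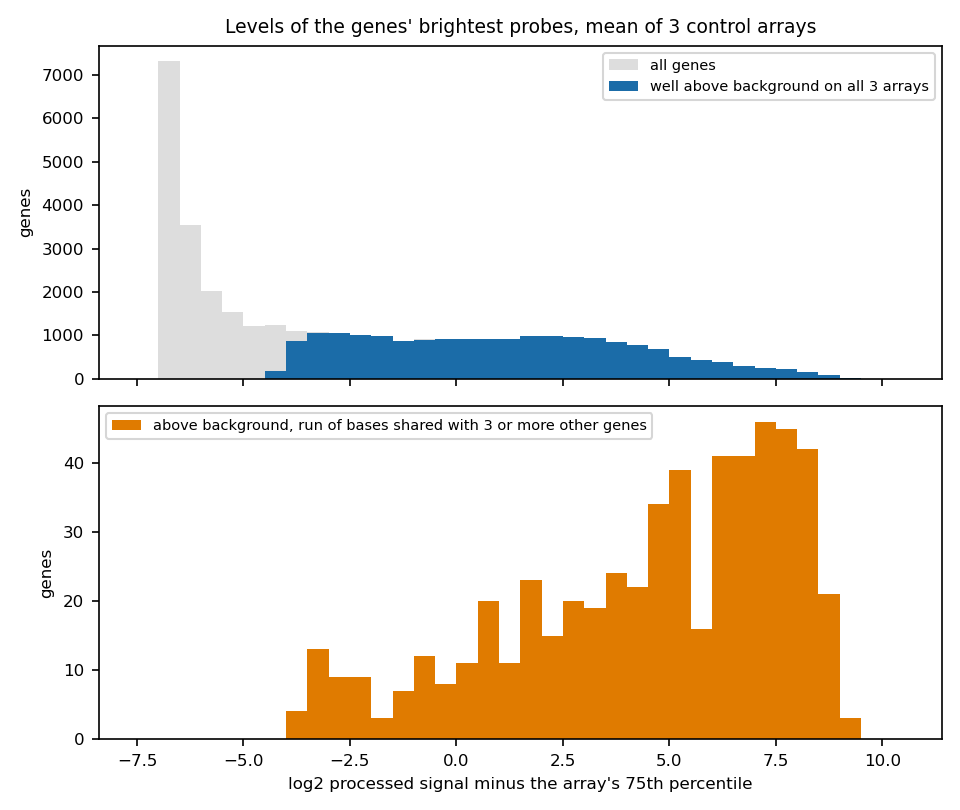
Number of genes (y axes) by the mean level of the brightest probe over the 3 control arrays (x axis, log2 signal minus the array's 75th percentile), for all genes with the detected ones in blue (upper panel) and for detected genes whose probe shares a run of bases with 3 or more other genes (lower panel). Silent genes pile up around their median of -6.54, detected genes spread from -4.36 to 9.42, and those of the lower panel lie to the right, with a median of 5.21.

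One property of the probes moved with the readings and is shown first. Where a probe holds a run of 20 bases that also occurs in probes of other genes, that run does not tell their transcripts apart. Among the 31800 genes whose brightest probe shared no such run with another gene, 52.1% were detected with a median level of 0.82. Among the 690 that shared a run with 3 or more other genes, 80.9% were detected with a median of 5.21, and all 116 that shared one with 20 or more were detected. The class of a gene was set by its brightest probe, which also gave its level. In a gene with several probes a shared run in a dimmer probe is thus not counted, which favours bright probes in the class. Of the 20 protein-coding genes with the brightest probes, 3 shared a run with 3 or more other genes, and of the 100 brightest 13 did.

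The 3 that did so among those 20 were Elk1, F10 and Kctd14. The windows of 30 bases from these probes, and from those of further genes discussed here, are shown 5′ to 3′ with the shared run of 20 bases in capitals, since they bear on how the signals are read.
Elk1: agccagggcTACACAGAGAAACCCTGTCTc
F10: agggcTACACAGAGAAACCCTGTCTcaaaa
Med16: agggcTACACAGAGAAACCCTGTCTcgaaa
Kctd14: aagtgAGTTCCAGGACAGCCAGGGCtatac
Cxcl11: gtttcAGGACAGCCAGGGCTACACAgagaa
Itgam: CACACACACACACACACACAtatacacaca
Snap25: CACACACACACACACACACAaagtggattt
The first 3 share 1 run, which resembles the B1 interspersed repeat of rodents, and all 9 genes whose brightest probe held it were detected, at a median level of 6.00. The last pair holds a simple CA repeat. Of the 69 genes whose brightest probe held TG or CA repeated 10 times, all 69 were detected, at a median of 7.30. On mouse build mm9 the probes lie at chrX:20510521-20510580 (Elk1), chr8:13056119-13056178 (F10), chr10:79357669-79357728 (Med16), chr7:104606896-104606955 (Kctd14), chr5:92788567-92788626 (Cxcl11), chr7:135261755-135261814 (Itgam) and chr2:136607709-136607768 (Snap25).

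Another probe of the same gene read far lower in some cases and close in others, and Snap25 has only 1 probe. Eef1a1, whose brightest probe shares a run with 4 other genes, read 6.63, 6.70 and 8.06 on controls 1, 2 and 3. An Eef1a1 probe without a run shared with 3 or more other genes read 6.60, 6.70 and 7.27. Elk1 had levels of 8.90, 8.89 and 9.49 on controls 1, 2 and 3 by the probe with the run, and -3.40, -3.61 and -3.60 by its other probe. F10, coagulation factor X, read 9.06, 8.90 and 9.75 by 1 probe and 3.12, 3.21 and 3.60 by the other. Slc10a1, a bile acid transporter of liver, read 9.04, 9.06 and 9.61, but its other probe read -6.72, -6.41 and -6.71 and was not well above background. Over the 4788 genes with several detected probes, the median range between probes was 1.99 on the log2 scale, or 3.97-fold, while the median SD over arrays of these genes was 0.158. Of the 608 listed genes detected, 11 had a brightest probe that shared a run with 3 or more other genes: Itgam, Snap25, Nanog, Cxcl11, Hk1, Gapdh, Eef1a1, Csf3r, Siglech, Etv6 and P2rx3.

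Clones, predicted genes, accessions and intergenic intervals left out, the 20 genes with the brightest probes, which lie between ranks 1 and 24 of all features, included several of protein synthesis: the ribosomal protein genes Rpl10, Rpl41, Rps14, Rpl37a and Fau, and Tpt1, which encodes a translationally controlled protein and read 9.30, 9.31 and 9.64, with its pseudogene Tpt1-ps5. The phagocyte and lipid genes Apoe, Ctsd, Mfge8, Marco and Mpeg1 and the housekeeping genes Actb, Aldoa and Fth1 were also among them. The other members were Slc10a1, F10, Kctd14, Elk1 and Exosc2, of which all but Exosc2 have a second probe that read far lower or at background. Each of these 20 read highest on control 3.

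The label of the cells was set against the macrophage markers given for them, and all 5 were detected. Csf1r, the M-CSF receptor, had levels of 8.37, 8.47 and 9.22 on controls 1, 2 and 3, and a mean of 8.69 ± 0.47 (SD, n = 3). Its other probes read 5.98, 6.04 and 6.10, and 3.88, 3.95 and 3.76, so its place depends on the probe. Adgre1, which encodes the surface antigen F4/80, had levels of 7.67, 7.58 and 7.68. Lyz2, the lysozyme of myeloid cells, had levels of 8.40, 8.49 and 9.02. The brightest probes of these 3 genes were brighter than those of 99.6%, 97.7% and 99.6% of detected genes. Cd68, a lysosomal glycoprotein, had lower readings of 3.10, 3.26 and 4.06, at the 75.4th percentile of detected genes. Spi1 had levels of 2.25, 2.23 and 2.06, at the 62.3rd percentile. On mm9 the probes lie at chr17:57620350-57620409 (Adgre1), chr10:116719175-116719234 (Lyz2), chr11:69478979-69479038 (Cd68) and chr2:90939665-90953452 (Spi1, spanning a splice). Control 3 gave the highest reading for all but Spi1, for which it gave the lowest. The median difference of control 3 from the mean of controls 1 and 2 over these 5 genes was 0.57. After quantile normalization it was 0.18.

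The wider list of macrophage identity genes was detected in full, 20 of 20, with a median level of 6.49. Mpeg1, a pore-forming protein of phagocytic vacuoles, had levels of 8.98, 8.97 and 9.08, although its second probe read 2.86, 3.30 and 3.11. Tyrobp, the adaptor DAP12, had levels of 8.77, 8.76 and 9.19, and Ctss, a lysosomal cysteine protease, 8.60, 8.50 and 8.89. Itgam, which encodes CD11b, had levels of 5.19, 5.16 and 5.36 by the probe with the CA repeat. An Itgam probe without a run shared with 3 or more other genes read 4.39, 4.29 and 4.83. The dimmest member of the list lay at 0.75. That was Cd33, with readings of 0.53, 0.48 and 1.23, named after its values were seen.

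Genes tied to macrophages of particular tissues were detected in part, at 12 of 18 (66.7%, beside 62.1% of all protein-coding genes). Marco, a scavenger receptor of lung and spleen macrophages, had one of the 20 brightest probes, with levels of 9.12, 9.08 and 9.27. Cx3cr1, the fractalkine receptor, read 4.86, 4.67 and 5.27, and Cd5l, a secreted protein of resident macrophages, 4.54, 4.34 and 4.73. The 5 silent members included Timd4, a receptor for dying cells, Sall1 of microglia, Gata6 of peritoneal macrophages and Lyve1 of perivascular ones. Siglech was detected, but its probe shares a run with 3 other genes and its other probes were not well above background. Of the osteoclast genes, which related cells express when they resorb bone, 9 of 10 were detected. Acp5, the tartrate-resistant acid phosphatase, stood highest at 8.45, 8.49 and 8.54, and Ctsk, cathepsin K, read 4.55, 4.70 and 4.52.

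**Figure D2:**
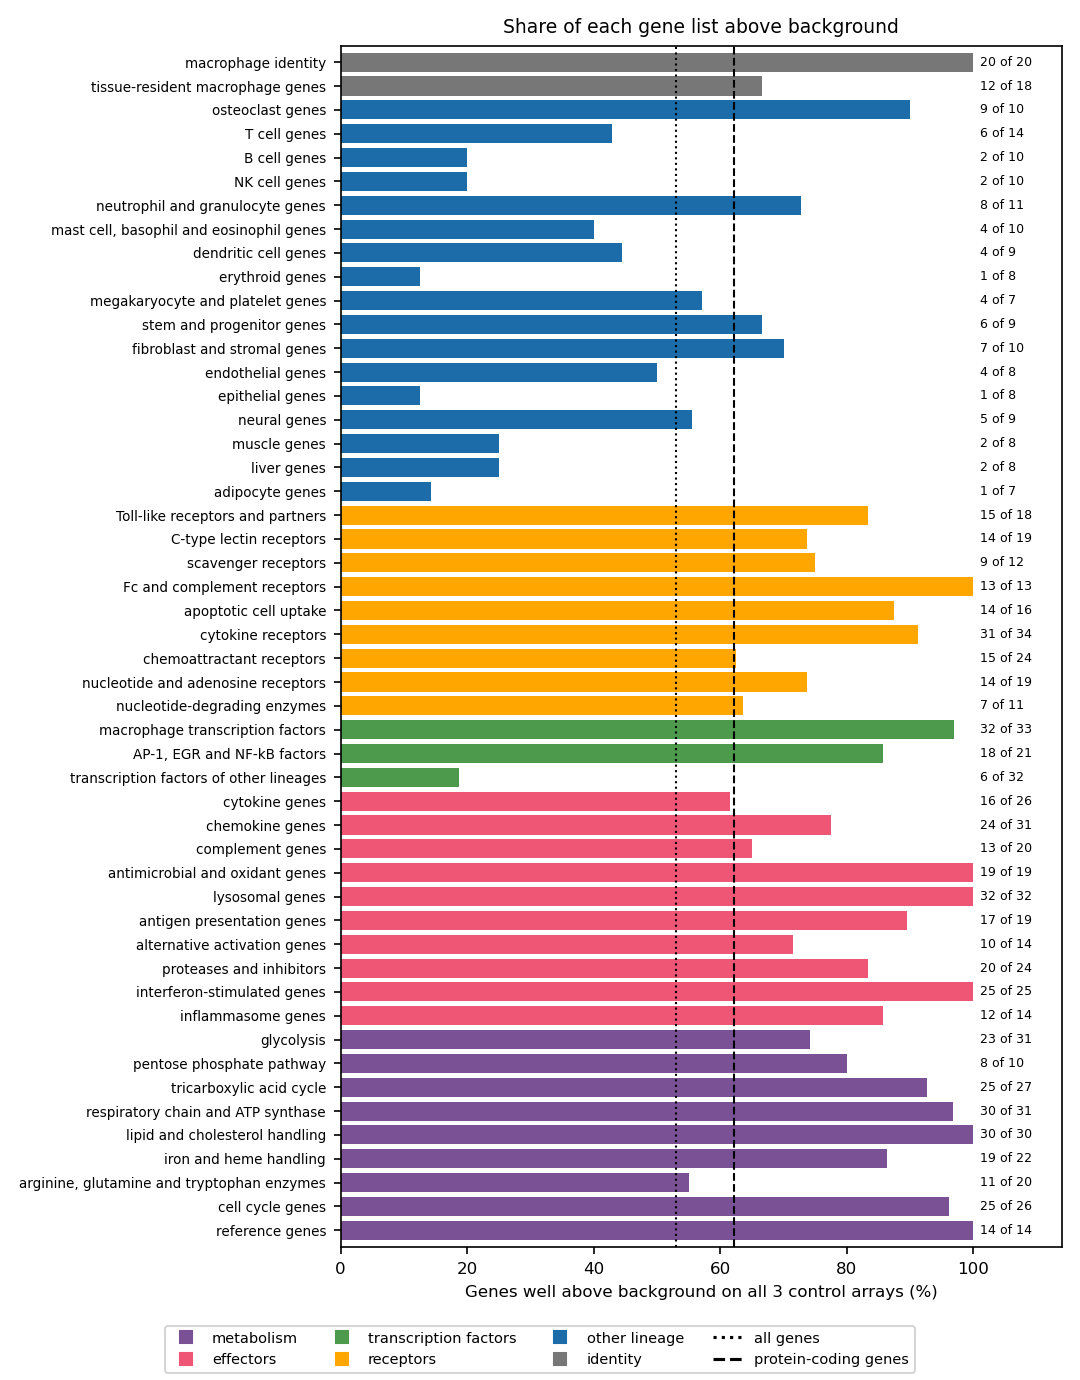
Share of each gene list detected on all 3 control arrays (x axis, %), with 1 bar per list coloured by role (nucleotide-degrading enzymes with the receptors, cell cycle and reference genes with metabolism), the counts at the right, and lines at the 53.0% of all genes and the 62.1% of protein-coding genes. Macrophage identity, Fc and complement receptor, antimicrobial, lysosomal, interferon-stimulated, lipid and reference genes reach 100%, and transcription factors of other lineages reach 6 of 32.

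Lists of the markers of other cell types, osteoclasts included, were detected at 67 of 155 genes, or 43.2%, below the 62.1% of all protein-coding genes. Defining genes were silent for several of these types. The T cell genes Cd3d, Cd3g, Cd8a and Cd8b1, the B cell genes Ms4a1, Blk and Fcrla, and the NK cell genes Ncr1, Klrd1, Eomes and Gzma were all silent. So were Klf1 of erythroid cells, Epcam, Cdh1, Krt8 and Krt18 of epithelia, Myod1 and Myog of muscle, Apoa1 and Ttr of liver, and Adipoq and Plin1 of fat. Of the lists with at most 2 members detected, erythroid, epithelial and fat cell genes had 1 of 8, 1 of 8 and 1 of 7. NK, B, muscle and liver genes had 2 of 10, 2 of 10, 2 of 8 and 2 of 8. The summed signal of a list, in units of the array's 75th percentile, ran over the 3 arrays from 2.10 to 2.28 for NK, 6.81 to 9.72 for B, 0.280 to 0.394 for erythroid, 0.305 to 0.367 for epithelial, 0.211 to 0.250 for muscle, 7.93 to 9.27 for liver and 52.4 to 62.4 for fat cell genes.

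Other members of the same lists were detected. Cd79b, of the B cell receptor, read 2.85, 2.68 and 3.23, and Afp, the fetal liver protein alpha-fetoprotein, 3.13, 3.16 and 2.94, each by its only probe. The NK cell genes Klra8 and Prf1 read 0.87, 0.88 and 0.87, and -2.60, -2.51 and -1.60, and a further Klra8 probe was not well above background. Endothelial genes were detected at 4 of 8, with Kdr, a VEGF receptor, at 2.12, 2.18 and 2.59. Stem and progenitor genes were detected at 6 of 9, with Cd34 at 2.15, 1.94 and 2.16. The other Cd34 probe read -4.24, -4.41 and -4.34 and was well above background on only 1 array. T cell genes were detected at 6 of 14, mast cell, basophil and eosinophil genes at 4 of 10, dendritic cell genes at 4 of 9, megakaryocyte and platelet genes at 4 of 7 and neural genes at 5 of 9.

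Some genes on these lists stood further above the background. Il7r, a receptor subunit of lymphocytes, read 4.73, 4.71 and 4.46, and Cd28, a T cell co-receptor, 3.55, 3.56 and 3.65. Cd4 and Cd3e were also detected, at means of 1.51 and -0.40. The other Cd4 probe read -5.12, -4.77 and -4.30 and was well above background on only 1 array. Pf4, a chemokine known from platelets, had levels of 7.60, 7.62 and 7.82, while Gp1ba, the platelet glycoprotein, was silent. Fabp4, a fatty acid-binding protein of fat cells that macrophages also make, read 5.76, 5.71 and 5.96, and Mbp, myelin basic protein, 5.22, 5.12 and 5.15. The other Mbp probes read lower, at means of -0.27 and -3.73. Col1a2, a collagen of fibroblasts, read 3.30, 3.16 and 3.38, beside 7 of 10 stromal genes detected and silent Lum. The neutrophil list was detected at 8 of 11: S100a8 read 4.58, 4.71 and 4.55, S100a9 -2.38, -2.92 and -1.80, and Ngp was silent. Csf3r, the receptor for G-CSF, read 7.39, 7.35 and 7.28, but its only probe shares a run with 3 other genes. In bulk RNA, more cells of a type and more transcript per cell cannot be told apart, and the part of such cells in these readings was not tested.

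Receptors and their partners were detected at 123 of 153 listed genes, or 80.4%, beside 62.1% of all protein-coding genes. Among the Toll-like receptors and their partners 15 of 18 were detected. Cd14, which hands lipopolysaccharide to its receptor, had levels of 7.75, 8.0 and 7.45. Tlr13, a sensor of bacterial ribosomal RNA, had levels of 7.00, 7.02 and 7.14, and Unc93b1, which carries endosomal receptors to their compartment, 6.79, 6.76 and 6.85. Tlr5, Tlr11 and Tlr12, of which the first recognises flagellin and the other two profilin, were silent. Nearly the whole list was thus above background, with these 3 as its exceptions.

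C-type lectin receptors, which bind sugars on microbes, were detected at 14 of 19. Clec4d had levels of 8.25, 8.38 and 8.44, and Clec7a, the beta-glucan receptor dectin-1, 6.82, 6.83 and 6.86. Cd209a, Cd209b, Cd209e and Clec4g were silent. Of the scavenger receptors 9 of 12 were detected, among them Stab1 at 6.69, 6.52 and 6.96 and Cd36 at 6.02, 5.96 and 5.89. Cd163, the haemoglobin scavenger, was silent, with readings of -6.68, -6.79 and -6.68. All 13 Fc and complement receptors were detected, led by the signalling chain Fcer1g at 8.88, 8.76 and 8.97 and followed by Itgb2 at 6.13, 6.05 and 6.15.

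Uptake of dying cells was represented by 14 of 16 genes. Mfge8, which bridges phosphatidylserine to integrins, had levels of 9.14, 9.20 and 9.51, and Trem2, a lipid-binding receptor, 8.36, 8.24 and 8.61. Havcr2, which encodes TIM-3, was the most variable member, at 2.18, 2.47 and 1.53. Havcr1 and Timd4 were silent. Cytokine receptors were detected at 31 of 34. Csf2ra, the GM-CSF receptor alpha chain, had levels of 7.61, 7.60 and 7.81, and Il5ra and Il13ra2 were silent.

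Chemoattractant receptors were detected less fully, at 15 of 24 (62.5%, beside 62.1% of all protein-coding genes). Fpr1, the formyl peptide receptor, had levels of 7.25, 7.30 and 7.37, Fpr2 5.04, 5.20 and 4.79, and the complement receptor C5ar1 4.84, 4.66 and 4.84. Ccr1, Ccr4, Ccr6 and Ccr10 were among the 8 silent members. The readings for Ccr1 were -5.36, -5.22 and -5.53 and come from a single probe, so that they bound only what this probe could show.

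The receptors for extracellular nucleotides and adenosine are given in full, since the study stimulated this receptor system. They divide into P2Y receptors, which are coupled to G proteins and bind ADP, ATP, UDP or UTP, P2X channels, which are opened by ATP, and adenosine receptors. Of the 19, 14 were detected, or 73.7%, beside 62.1% of all protein-coding genes, with a median level of 0.83. P2rx4 had the brightest probe, with 6.86, 6.79 and 7.25, followed by the UDP receptor P2ry6 with 5.94, 5.81 and 6.18. P2rx7, the channel that can open a large pore, read 4.31, 4.16 and 4.59. Its other probes read 1.89, 1.84 and 1.65, and -0.19, -0.23 and 0.03, so the place of this gene depends on the probe.

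The 3 ADP receptors gave lower readings, each by a single probe. Levels of different probes do not rank transcript amounts. P2ry1, coupled to Gq, had levels of 1.1, 1.04 and 1.17. P2ry13, coupled to Gi, had -0.38, -0.74 and -0.25. P2ry12, also coupled to Gi and the target of clopidogrel, had -1.90, -2.06 and -0.99, with control 3 above the other two. Their probes on mm9 lie at chr3:60812600-60812659, chr3:59012054-59012113 and chr3:59020598-59020657. All 3 were above background on every control array. For P2ry12, control 3 differed from the mean of the other two by 0.99. Over 6 arrays, with treatment as a covariate, the slide difference was 0.74 with a limma adjusted p of 0.018. That fit has no term for donor, so a difference between donors cannot be told apart from one between slides.

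Among the remaining P2Y receptors, P2ry2, for ATP and UTP, read 2.57, 2.55 and 2.73, and P2ry14, for UDP-sugars, 2.11, 2.07 and 2.37. P2ry4, and P2ry10, which binds lysophosphatidylserine despite its name, were silent. P2rx1 read -0.75, -0.82 and -0.93, and P2rx5 -2.66, -2.81 and -1.79. P2rx2 was silent and P2rx6 was above background on 2 of the 3 arrays. P2rx3 read -1.12, -0.27 and -1.44 by a probe that shares a run with 3 other genes. The adenosine receptors Adora2a (0.69, 0.97 and 0.52), Adora2b (0.87, 0.87 and 1.09) and Adora3 (0.44, 0.60 and 0.88) were detected, and Adora1 was silent. No receptor of this family other than P2rx4, P2ry6 and P2rx7 read above 3.43, the upper quartile of detected genes.

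**Figure D3:**
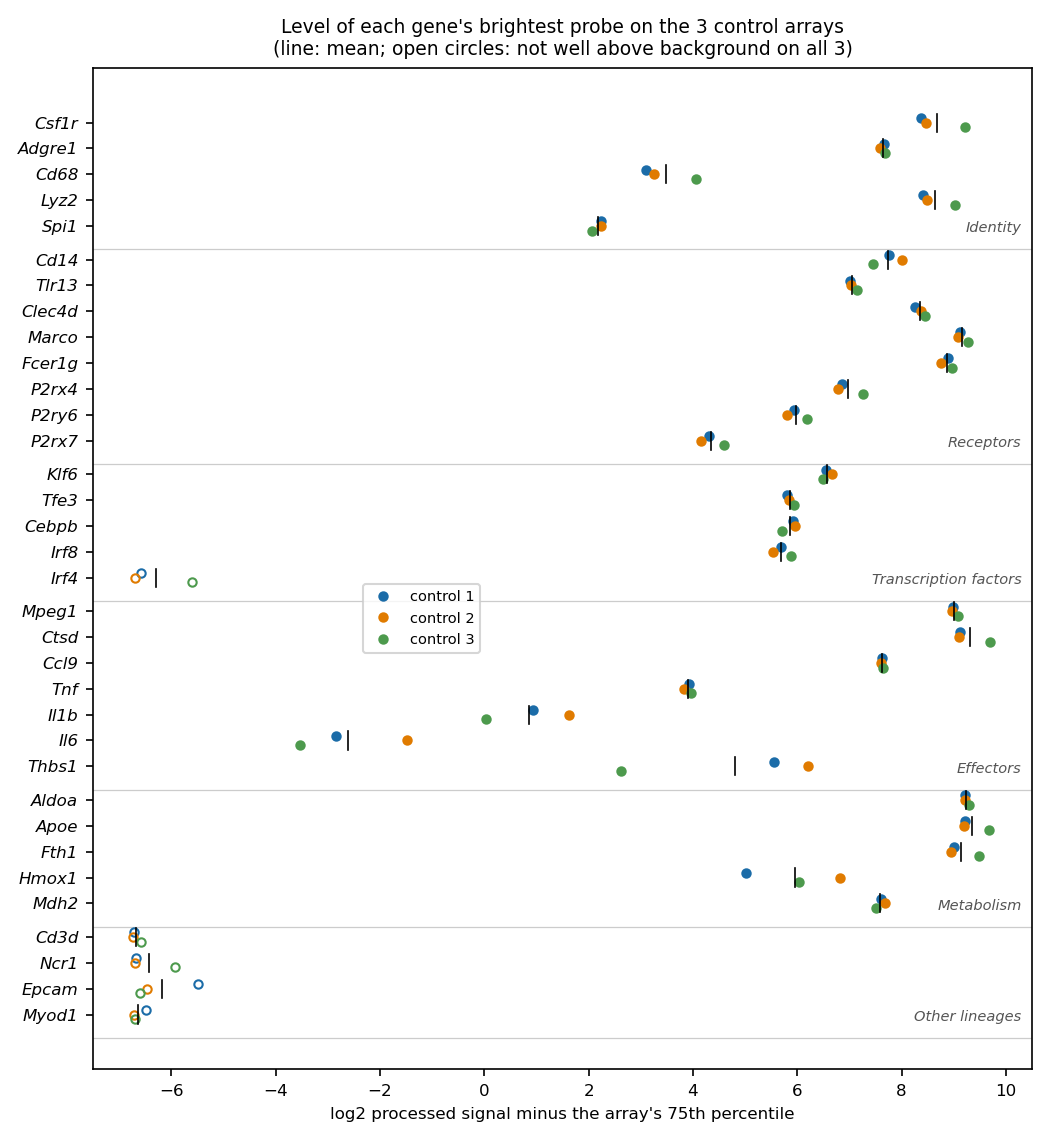
Level of the brightest probe (x axis, log2 signal minus the array's 75th percentile) on each control array for genes of 6 roles, with the mean as a vertical line and open circles for genes not well above background on all 3 arrays. The arrays lie close together for most genes, but apart for Hmox1, Il1b, Il6 and Thbs1. The 4 markers of other lineages shown are silent members of their lists and lie at the background. Of all listed genes of other cell types 67 of 155 were detected.

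Of the list of enzymes that break down nucleotides and adenosine, 7 of 11 were detected (63.6%, beside 62.1% of all protein-coding genes). Entpd1, which encodes CD39 and turns ATP and ADP into AMP, had levels of -0.24, -0.23 and -0.12. Entpd5 read 2.14, 2.20 and 2.11, and adenosine deaminase, Ada, 1.59, 1.46 and 1.85. Nt5e, CD73, which makes adenosine from AMP, read -1.56, -1.22 and -3.09, over 2-fold lower on control 3 than on the mean of controls 1 and 2. Entpd3 and Enpp3 were silent.

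Of the 33 listed transcription factors of macrophages 32 were detected. Klf6 had levels of 6.55, 6.66 and 6.50, Cebpb 5.91, 5.96 and 5.71, Tfe3, a regulator of lysosomal genes, 5.81, 5.84 and 5.93, and Irf8 5.68, 5.53 and 5.87. Irf4 was the silent member. Of the AP-1, EGR and NF-kB factors, which respond to stimulation within hours, 18 of 21 were detected. Nfkbia, the inhibitor of NF-kB, had levels of 6.71, 6.76 and 6.77, Rela 6.57, 6.61 and 6.63, and Jun 5.16, 5.18 and 5.17. Rel, Egr3 and Nr4a3 were silent, and Nr4a2, a nuclear receptor of the immediate early class, ranged from -1.28 to 0.68.

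Factors that specify other lineages stood apart by their count, with 6 of 32 detected and 24 silent, beside 62.1% detected among all protein-coding genes. Gata1, Gata4, Gata6 and Pax6 were silent. Tal1, Gata2 and Gata3 were detected at means of 0.53, -2.28 and -2.12. Nanog, a factor of pluripotent cells, read -0.52, -0.49 and -0.94 by a probe that shares a run with 11 other genes, while its other probe was not well above background.

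Effector genes were detected at 187 of 221, or 84.6%, beside 62.1% of all protein-coding genes. Antimicrobial and oxidant genes were detected in full, 19 of 19, with the highest median of these lists at 7.05. Cyba, a subunit of the phagocyte oxidase, had levels of 8.85, 8.78 and 8.97, and Gpx1, which removes peroxides, 8.66, 8.59 and 8.99. Acod1, the itaconate-producing enzyme that stimulated macrophages induce, stood at 7.00, 7.12 and 7.03, and Nos2, the inducible nitric oxide synthase, at 0.35, 0.67 and 0.58. Both are named after their values were seen. All 32 lysosomal genes were detected, with a median of 6.90. Ctsd, an aspartic protease, had levels of 9.13, 9.09 and 9.70, Lamp1, a membrane protein of lysosomes, 8.59, 8.64 and 9.13, and Ctsl 8.43, 8.44 and 9.03. In each of these 3 control 3 was the highest array. Over the 32 lysosomal genes the median difference of control 3 from the mean of controls 1 and 2 was 0.23. After quantile normalization it was -0.03.

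Cytokine genes were detected at 16 of 26, or 61.5%, close to the 62.1% of all protein-coding genes, and their median level was -0.27. Mif had levels of 6.55, 6.57 and 6.89, Tnf 3.92, 3.84 and 3.96, Tgfb1 3.62, 3.49 and 4.12, and Il18 1.15, 1.20 and 1.15. Il6 was low and unsteady, at -2.84, -1.48 and -3.53. Il12a, Il12b, Il23a and Ifng were silent. Chemokine genes were detected at 24 of 31, with Pf4, given above, and the myeloid ligands Ccl9 (7.62, 7.61 and 7.64) and Ccl6 (7.18, 7.22 and 7.22) among the brightest probes. Cxcl11 read 7.53, 7.59 and 8.82 by its repeat-bearing probe. Its probe without a run shared with 3 or more other genes read 2.83, 2.90 and 2.66. Ccl11, Ccl17, Ccl20 and Ccl28 were silent.

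Complement genes were detected at 13 of 20 (65.0%, beside 62.1% of all protein-coding genes). Cfp, properdin, had levels of 8.09, 7.98 and 8.29, and the C1q chain genes C1qc and C1qb 7.42, 7.33 and 7.42, and 7.10, 7.07 and 7.17. C3 read 7.27, 7.13 and 7.34, whereas C6, C7, C8a and C8b, of the membrane attack complex, were silent. Antigen presentation genes were detected at 17 of 19. H2-K1 and B2m, of class I, had levels of 8.93, 8.88 and 8.78, and 8.20, 8.25 and 8.75. H2-Ab1, of class II, read 5.67, 5.73 and 6.16, and Cd74, the invariant chain, 5.46, 5.39 and 6.33. Of the alternative activation genes, many of which interleukin 4 induces, 10 of 14 were detected. Tgm2 had levels of 6.48, 6.68 and 5.76, and Arg1, arginase, 1.31, 1.61 and 0.37. Retnla, Ccl17 and Cd163 were silent.

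Interferon-stimulated genes were detected at 25 of 25, with a median level of 4.54. Ifitm3, which blocks entry of viruses, had levels of 7.74, 7.68 and 7.74. Oas1a, an antiviral synthetase, had 7.11, 7.12 and 7.66, and Bst2, tetherin, 6.93, 7.05 and 7.24. Isg15 read 6.02, 6.17 and 6.40, but 1.40, 1.72 and 2.47 by its other probe. The median of the list lay above the upper quartile of detected genes, 3.43. Inflammasome genes were detected at 12 of 14, with Naip5, a sensor partner for flagellin, at 6.54, 6.52 and 6.82 and Casp1, the protease that activates interleukin 1, at 5.86, 5.89 and 5.93. Nlrp3, which oligomerises on danger signals, read -2.49, -2.41 and -2.31, named after its values were seen. Proteases and their inhibitors were detected at 20 of 24, led by Adam8 at 7.94, 7.97 and 8.29.

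Metabolic genes were detected at 145 of 170, or 85.3%, beside 62.1% of all protein-coding genes. Of the glycolysis list 23 of 31 were detected, with Aldoa (9.21, 9.22 and 9.29), Gapdh (8.61, 8.63 and 9.01) and Ldha (7.84, 7.83 and 8.42) at the top. The Gapdh probe shares a run with 5 other genes, and a probe without a run shared with 3 or more read 8.38, 8.34 and 8.55. Hk1, a hexokinase, read 6.07, 6.14 and 7.74 by a probe that shares a run with 6 other genes. An Hk1 probe without a run shared with 3 or more read 4.68, 4.70 and 5.32. The silent members are isoforms of other tissues, such as Slc2a2 of liver and Slc2a4 of muscle and fat. The pentose phosphate pathway was detected at 8 of 10, with Taldo1 at 8.29, 8.35 and 8.48.

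Mitochondrial genes were detected at 25 of 27 for the tricarboxylic acid cycle and at 30 of 31 for the respiratory chain and ATP synthase. Mdh2, malate dehydrogenase, had levels of 7.60, 7.68 and 7.51, and Cox6a1, of complex IV, 8.87, 8.88 and 8.92. Silent were Pck1 and Cox8b, which liver and heart or fat express. All 30 lipid and cholesterol genes were detected, led by Apoe (9.21, 9.19 and 9.68), Fabp5 (8.70, 8.68 and 8.93) and Plin2 (8.44, 8.27 and 8.69), the last a coat protein of lipid droplets. Of the iron and heme genes 19 of 22 were detected. Ferritin heavy chain, Fth1, had levels of 9.01, 8.95 and 9.48, and the phagosomal metal transporter Slc11a1 7.18, 7.09 and 7.19. Hmox1, heme oxygenase, ranged more widely, at 5.02, 6.83 and 6.04, and its other probe read 1.83, 3.55 and 2.80 in the same order. Enzymes of arginine, glutamine and tryptophan were detected at 11 of 20 (55.0%, beside 62.1% of all protein-coding genes). They included Glul at 4.36, 4.20 and 4.27, while Nos1, Otc, Cps1 and Ido1 were silent. Cell cycle genes were detected at 25 of 26, with Pcna at 6.73, 6.61 and 6.85 and Mcm6 at 5.83, 5.60 and 6.04. Aurkb was the silent member.

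The promoters of these genes were set beside detection, using the 250 bases before the start in RefSeq sequences of GRCm38.p6. Of the protein-coding genes, 13370 of 20046 had a single promoter entry, and 8040 of these were detected, or 60.1%. The share detected rose with the CpG ratio, which is the observed number of CpG dinucleotides over that expected from the base composition. It was 23.9% of 3047 genes with a ratio up to 0.2 and 89.8% of 1073 genes with a ratio over 1. The median ratio was 0.725 for detected and 0.233 for silent genes. The 12 macrophage identity genes with a promoter, all detected, had a low median ratio of 0.219. Lists of other cell types, detected in smaller part, lay as low, at 0.163 for T cell, 0.185 for liver and 0.0966 for fat cell genes. The ratio was 0.842 for cell cycle and 0.874 for respiratory chain genes. The values are given as a description, since a list was not tested against others.

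**Figure D4:**
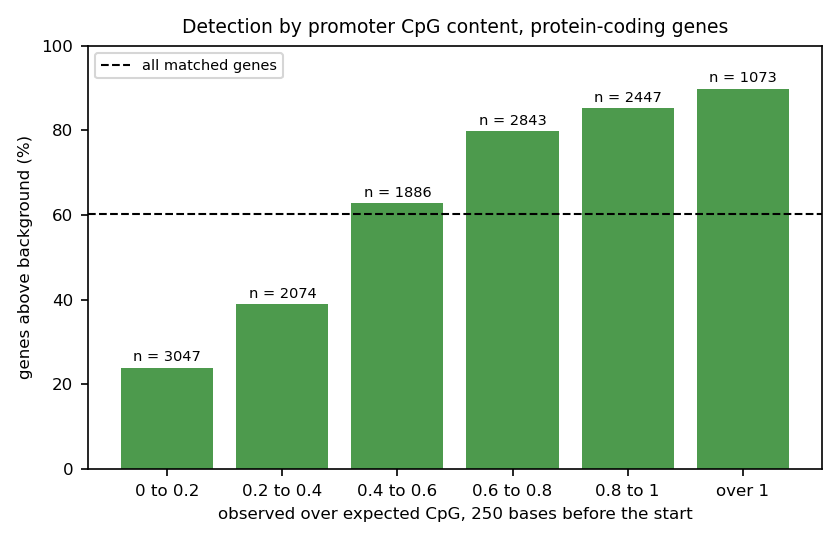
Share of protein-coding genes detected (y axis, %) by the CpG ratio of the 250 bases before the start (x axis, observed over expected), with the number of genes above each bar and a dashed line at the 60.1% of all genes with a promoter. The bars rise from 23.9% in the lowest class to 89.8% in the highest.

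Promoter motifs were searched on both strands. A pair of GAAA separated by any 2 bases, the core of the element bound by interferon-activated ISGF3, occurred in 3.09% of all 13370 promoters, in 2.85% of detected genes and in 3.51% of silent ones. Of the 15 interferon-stimulated genes with a promoter 8 held it: Ifit1, Ifit3, Isg15, Oas1a, Oas3, Stat2, Rsad2 and Bst2. GAGGAAG, which holds a core that PU.1 binds, occurred in 10.1% of all promoters, 11.1% of detected and 8.69% of silent genes. It lay in 5 of 12 macrophage identity genes (Itgam, Fcgr1, C1qc, Laptm5 and Cd33), 5 of 10 neutrophil genes, 3 of 5 megakaryocyte genes and 0 of 16 macrophage transcription factors. CCGGAAGT, bound by factors of the ETS family, occurred in 6.12% of detected and 0.911% of silent genes, GGGCGG in 58.2% and 23.7%, and TATAAA in 7.31% and 21.5%. A match is a description and shows no binding. Of the promoters that carry such matches 4 are printed below, with the match in capitals, to show how the motifs lie. For Isg15 at chr4:156200819-156201068 (minus strand), there are 3 overlapping matches, of which the first begins 78 and the last 66 bases before the start. For Ifit1 at chr19:34640639-34640888 (plus strand), 2 matches begin 104 and 85 bases before it. Rsad2 at chr12:26456453-26456702 (minus strand) has 1 match at 120. Laptm5 at chr4:130913066-130913315 (plus strand) has GAGGAAG, on its other strand, at 39.
Isg15: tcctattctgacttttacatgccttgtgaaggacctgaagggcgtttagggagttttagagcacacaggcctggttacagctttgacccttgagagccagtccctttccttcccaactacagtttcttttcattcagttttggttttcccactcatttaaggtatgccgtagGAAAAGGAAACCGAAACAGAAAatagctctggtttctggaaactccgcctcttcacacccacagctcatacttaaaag
Ifit1: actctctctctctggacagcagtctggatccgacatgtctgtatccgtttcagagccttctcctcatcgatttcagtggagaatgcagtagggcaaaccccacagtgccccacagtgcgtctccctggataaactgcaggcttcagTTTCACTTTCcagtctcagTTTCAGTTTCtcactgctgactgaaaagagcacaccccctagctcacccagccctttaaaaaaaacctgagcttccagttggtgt
Rsad2: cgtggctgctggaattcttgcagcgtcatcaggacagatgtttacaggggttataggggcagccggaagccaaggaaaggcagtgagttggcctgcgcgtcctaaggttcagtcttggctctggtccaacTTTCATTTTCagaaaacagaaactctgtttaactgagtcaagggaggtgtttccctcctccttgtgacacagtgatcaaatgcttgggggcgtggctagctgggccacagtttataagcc
Laptm5: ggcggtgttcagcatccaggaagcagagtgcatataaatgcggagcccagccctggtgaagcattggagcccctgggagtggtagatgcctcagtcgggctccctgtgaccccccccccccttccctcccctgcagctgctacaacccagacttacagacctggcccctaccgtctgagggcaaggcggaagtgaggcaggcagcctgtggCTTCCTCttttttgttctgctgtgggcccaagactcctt
Isg15 levels are given above. Ifit1 had levels of 2.92, 2.96 and 3.06, Rsad2 4.26, 4.42 and 4.97, and Laptm5, a lysosomal membrane protein of blood cells, 5.89, 5.75 and 5.08. The genes were picked for their matches, after their values were seen.

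Over the 3 arrays the spread was small for most genes. The median SD was 0.179 on the log2 scale over the 19115 detected genes and 0.159 over the protein-coding ones, and 1155 genes, or 6.04%, ranged over 2-fold. The median SD fell with signal, from 0.259 in the dimmest of 4 equal groups of detected genes to 0.145 in the brightest. For comparison, the SD of repeated spots of 1 probe on the same array had a median from 0.033 to 0.042. The median absolute difference was 0.096 between controls 1 and 2, 0.250 between controls 1 and 3, and 0.282 between controls 2 and 3. Control 3 lay outside the other two for 86.3% of detected genes. Even among 3 alike arrays, any given one would lie outside the others for most genes. Controls 1 and 2 lay on 1 slide and control 3 on the other, so that slide and donor cannot be told apart. The slide of control 3 is called slide 2 below.

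**Figure D5:**
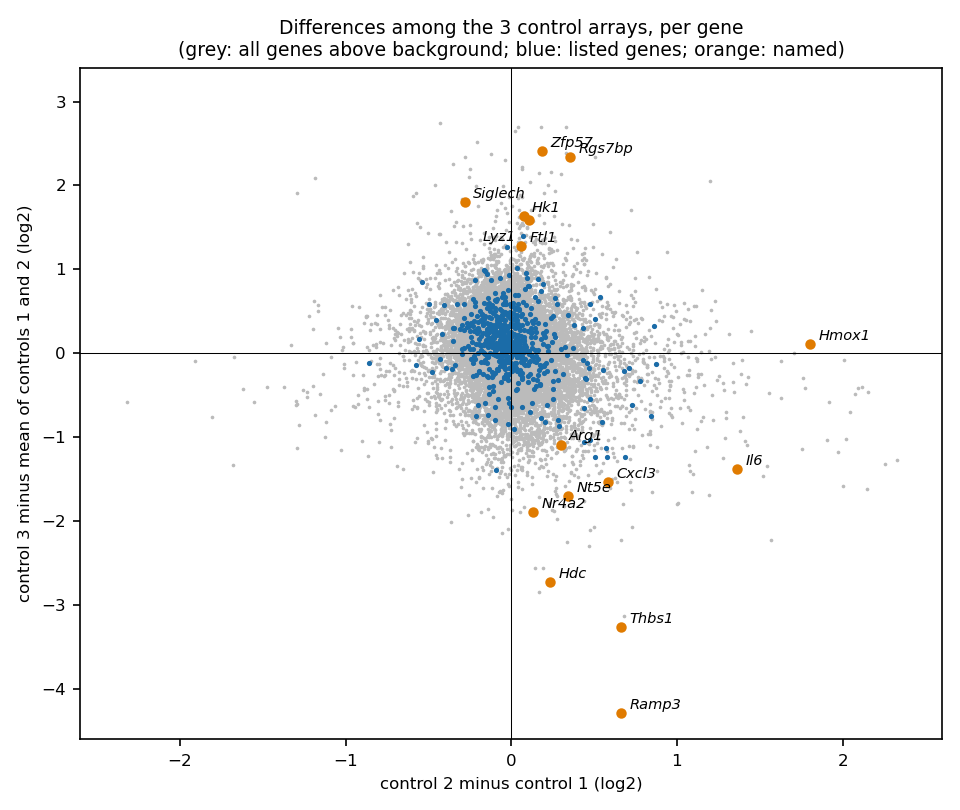
Difference of control 2 from control 1 (x axis, log2) against the difference of control 3 from the mean of the other two (y axis, log2) for detected genes, with listed genes in blue and named genes in orange; 8 of the 19115 lie outside the axes, Ndufa11b among them. Most genes lie near the centre, and the named genes Ramp3 and Thbs1 lie at -4.29 and -3.26.

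When the slide was tested with limma over the 3 arrays, with Benjamini-Hochberg adjustment over all 19115 genes, 0 genes passed an adjusted p of 0.05, or 0%, with 7264 at an unadjusted p under 0.05 (38.0%) and a smallest adjusted p of 0.051. The fit has 1 residual degree of freedom, and on simulated data it recovered 1.6% of 2-fold and 74.8% of 4-fold changes. The simulated data changed 100 of the 19115 genes by each size, so these rates need not hold where many more genes differ. With all 6 arrays and the treatment as a covariate limma called 4187 genes, or 21.9%. Of these, 2685 were higher on slide 2 and 1502 lower. That fit has no term for donor, so slide and donor are not told apart in it either. On size alone, 408 detected genes were over 2-fold lower on control 3 than on the mean of controls 1 and 2, or 2.13%, and 296 were over 2-fold higher, or 1.55%.

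Of the 608 detected listed genes 20 differed by over 2-fold, or 3.29%, against 3.68% of all detected genes. They are named for that size, after their values were seen. The 12 lower on control 3 were Ccr7, Il1r1, Il1r2, Nt5e, Fosb, Nr4a2, Il1b, Il6, Cxcl3, Arg1, Serpinb2 and Odc1. Among them, Il1b read 0.94, 1.62 and 0.04, Cxcl3 2.41, 2.99 and 1.17, and Serpinb2 -0.14, 0.44 and -1.09. Nr4a2 differed by -1.89 and its second probe moved the same way, with -1.38, -0.83 and -2.63. The 8 higher on control 3 were Siglech, Car4, Cxcl11, Lyz1, Hk1, Ftl1, Eef1a1 and Rpl13a. Of these 8, 6 share a run of 20 bases with at least 1 other gene, against 1 of the 12 lower genes, and among all detected genes 32.1% of the higher, 17.2% of the lower and 13.3% of all do. The part of shared runs in this difference was not tested. After quantile normalization 13 listed genes were over 2-fold lower and 9 higher: Cxcl11, Ftl1 and Rpl13a fell short, at 0.88, 0.91 and 0.71, and Tgm2 (lower) and Hoxa9, P2rx5, P2ry12 and Prf1 (higher) passed.

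The genes with the largest SD included several that were on no list. Thbs1, thrombospondin 1, read 5.56, 6.22 and 2.62, and Ramp3, a receptor activity-modifying protein, 1.84, 2.50 and -2.12. A second Ramp3 probe read 1.58, 2.25 and -2.37. Hdc, which makes histamine, read -0.16, 0.08 and -2.77. In all 3 genes control 3 lay lowest, below the range of controls 1 and 2. Ndufa11b, a pseudogene, read 1.82, 10.35 and 2.17, and Rnd2 5.95, 0.36 and 0.09, while a second Rnd2 probe read -0.77, -0.71 and -0.54. Of genes that lay more than 2 from the other arrays on the log2 scale while those agreed within 0.5, controls 1, 2 and 3 had 4, 6 and 33.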

How the data were processed

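RNA of 3 control BMDM samples was hybridised to one-colour (Cy3) Agilent mouse arrays, 1 array per sample. The authors' deposited files give the intensity of every spot after background subtraction within the array by Agilent Feature Extraction 10.7.1.1, per the file headers and the submitters' processing notes. The deposited value table of the series holds the same intensity, unscaled between arrays (within 0.001 log2 for 100% of probes, with column medians of 18.5, 20.2 and 21.8 for controls 1, 2 and 3), and was used as an alternative. All per-sample columns were mapped to samples, leaving 0 unused.

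Here, control spots and outlier spots were left out, spots of 1 probe averaged, and each array's 75th percentile subtracted on the log2 scale. Each gene took its brightest probe. Of 55681 probes, 26576 were named through accessions, 2607 by symbol, 492 by synonym and 26006 by the file, using a RefSeq table of GRCm38.p6 for names. Probe positions are those of the files, on mm9, without annotation of exons or UTRs. Slides were compared with limma 3.58.1 in R 4.3.3, two-sided, and the fit was tested on simulated data (5 runs). The treatment protocol in the labels repeats the text of the ADP samples, so the title, description and treatment label were followed.

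The group and its gene lists, 51 lists of 811 genes, were chosen with earlier results of these data known. Of these genes 807 matched the array, 608 were detected, 159 were silent and 40 were above background on some arrays; Ly6g, Acp3, Ccl21a and C5 did not match. The text names the given markers, the 20 brightest and 20 most variable genes in part, up to 4 brightest, the most variable and up to 4 silent members of a list, all nucleotide receptors and probes that disagree; other genes are marked, or were read with a list. Alternatives were other background corrections, scalings, probes per gene, detection rules, variances and left-out arrays.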

Additional observations from a re-analysis of the deposited data

How the results depend on the processing

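No paired analysis was possible because the slides compared, controls 1 and 2 against control 3, share no replicate number, and controls were not compared with ADP. The count of 19115 detected genes stayed within 1.5 times under every alternative tried: 20166 on at least 2 arrays, 22135 on at least 1, and 19338 to 19711 leaving out 1 array. The median level of the listed genes was 3.54. It was 3.35 with normexp background correction, 7.87 with median scaling, 12.21 in the unscaled value table and 2.85 with the mean over all probes of a gene. It ranged from 3.51 to 3.58 leaving out 1 array. Places among detected genes moved by at most 3.49 percentile points under normexp, but the mean over all probes moved 58 of 608 genes by over 10 points. The median SD of 0.179 ranged from 0.068, without control 3, to 0.199 leaving out 1 array. The slide test called 0 genes, and 0 with quantile normalization (6441 at an unadjusted p under 0.05) or without a filter (8252). Limma called 4187 over 6 arrays, 6271 with trended and robust variances, 5586 with normexp and 7854 in the unscaled table; the cause was not tested. The median absolute slide difference, a measure added after the data were seen, was 0.258 and lay between 0.211 and 0.386. Choosing a probe without a run shared with 3 or more other genes was added after the data were seen, and left 18665 genes detected with a median listed level of 3.50. Of the 11 listed genes it touched 5 stayed detected, and 4 listed genes moved by over 10 percentile points, 1 of them by 93.3. Signal over background limits the dim end: no gene under -4.36 was detected, and readings of silent genes are bounds.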

Other observations

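Gene families taken by symbol after the data were seen, some of whose members are also on the lists, were detected at very different shares. The share of all protein-coding genes was 62.1%. Cytosolic ribosomal proteins were detected at 81 of 82, and zinc finger genes named Zfp at 289 of 344. The detected members had median levels of 8.0 and 0.11. Rab GTPases were detected at 49 of 59, vacuolar ATPase subunits at 17 of 22 and cathepsins at 14 of 18. Olfactory receptors were detected at 42 of 1068, or 3.93%, vomeronasal receptors at 11 of 255, defensins at 1 of 57 and keratins at 10 of 52. Solute carriers lay near the background, at 194 of 335.

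Features outside protein-coding genes were also measured. Intergenic intervals were detected at 2278 of 4607 (49.4%), and long noncoding RNAs at 366 of 1349 (27.1%), beside 53.0% of all genes and features. In 1969 genes the signal was above background on 1 array only, of which 411, 823 and 735 were on controls 1, 2 and 3.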
